A study of Drosophila melanogaster with 3 samples.

Results

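Divergent promoter peaks are the ChIP-seq peaks that lie where a pair of protein-coding genes start close together and are transcribed away from each other. A peak was taken as divergent when its summit lay within 500 bp of the transcription start sites (TSSs) of 2 different protein-coding genes on opposite strands, with the minus-strand TSS at the lower coordinate and the TSSs at most 1000 bp apart. This held for 431 of the 7248 reproducible peaks (5.95%, 95% Wilson interval 5.43 to 6.51%), and for 22.0% of the 1963 peaks with a summit within 500 bp of any protein-coding TSS. The peaks came from chromatin immunoprecipitation and sequencing in Drosophila melanogaster, from whole prepupae of both sexes pooled, of a transgenic line that stably expresses the protein CG10669 fused at its C-terminus to green fluorescent protein (GFP). There were 3 biological replicates of this 1 group, all called against the same control file, and no second genotype, stage or treatment. The description of every sample calls it an input control, although the assay, antibody and peak files are those of immunoprecipitations, and the samples were taken as such here. The labels also give an age of 24 days, too old for the prepupal stage they name, and the age was not used. The antibody field gives CG10669 as the target although the protein is a GFP fusion, and the labels do not settle whether untagged protein was recovered as well. Chromatin was sonicated to a size range of 200 to 800 bp. The depth is unknown, as no source used here gives read numbers.

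In a divergent promoter the upstream regions of both genes are the same stretch of DNA, and in the compact fly genome such pairs are common and often hold housekeeping genes. The stretch is usually open chromatin, and factors bound there can act on both genes, on 1 of them or on neither. Known sequences of such promoters include the DNA replication-related element (DRE), bound by Dref, the CGATA core bound by the insulator protein BEAF-32, and Motif 1, bound by M1BP. GAGA elements, bound by the GAGA factor Trl, are known from promoters of developmentally regulated and heat shock genes.

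The DNA between the 2 TSSs is shown for 4 of the members of highest signal, which were the first in order of signal with 150 to 300 bp between the TSSs, the summit between them, no annotated exon in between and recovery in all 3 replicate lists. Each is the plus strand of the dm6 assembly (RefSeq, Release 6), read 5′ to 3′ from the base after the minus-strand TSS to the base before the plus-strand TSS. Capitals mark runs of at least 6 A or T bases, since low GC content at the summit set the members apart from other promoter peaks. The stretches lie at chr3R:15229409-15229664 (Art3/mRpS10), chr2L:8376798-8377034 (CG13390/CG17294), chr3L:9457670-9457911 (CG3437/CG3552) and chr3R:29736746-29736964 (CG7601/CIA30). The minus-strand gene is named first in each pair.
Art3/mRpS10: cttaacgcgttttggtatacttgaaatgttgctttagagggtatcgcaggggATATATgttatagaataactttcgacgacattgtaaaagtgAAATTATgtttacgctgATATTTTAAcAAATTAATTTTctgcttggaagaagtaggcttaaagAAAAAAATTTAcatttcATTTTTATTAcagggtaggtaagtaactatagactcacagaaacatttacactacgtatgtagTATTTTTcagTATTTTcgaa
CG13390/CG17294: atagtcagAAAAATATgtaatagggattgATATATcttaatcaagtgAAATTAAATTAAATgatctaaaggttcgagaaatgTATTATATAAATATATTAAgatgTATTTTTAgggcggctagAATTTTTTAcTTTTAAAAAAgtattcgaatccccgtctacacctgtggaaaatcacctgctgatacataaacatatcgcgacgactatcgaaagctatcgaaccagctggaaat
CG3437/CG3552: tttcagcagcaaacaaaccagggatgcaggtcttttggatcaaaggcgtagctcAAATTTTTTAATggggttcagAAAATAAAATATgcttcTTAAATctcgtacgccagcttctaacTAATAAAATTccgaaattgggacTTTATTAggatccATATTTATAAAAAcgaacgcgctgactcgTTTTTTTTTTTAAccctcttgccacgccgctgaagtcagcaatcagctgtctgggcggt
CG7601/CIA30: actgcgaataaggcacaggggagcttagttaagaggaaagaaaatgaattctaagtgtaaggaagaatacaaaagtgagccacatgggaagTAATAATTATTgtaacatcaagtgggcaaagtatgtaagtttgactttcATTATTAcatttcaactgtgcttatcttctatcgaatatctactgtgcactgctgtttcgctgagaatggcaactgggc
The summits fell on bases 127, 85, 122 and 102 of these sequences, counted from 1 at the left end, which is close to the middle in 3 of the 4. Their GC content was 30.1%, 30.8%, 40.1% and 37.9%.

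A further sequence is that of the insulator gene Cp190, the member of highest signal that had no candidate summit in replicate 1, at chr3R:15275242-15275521, with the same capitals.
Cp190/CG4338: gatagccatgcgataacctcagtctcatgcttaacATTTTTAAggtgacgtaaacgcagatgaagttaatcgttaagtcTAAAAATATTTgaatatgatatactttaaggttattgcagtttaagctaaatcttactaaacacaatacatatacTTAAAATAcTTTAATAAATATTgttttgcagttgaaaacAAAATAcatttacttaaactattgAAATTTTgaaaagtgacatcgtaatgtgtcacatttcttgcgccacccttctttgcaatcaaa
The next 3 sequences are shown for a consensus motif in the 200 bp window around the summit, and here capitals mark the motif: the DRE (TATCGATA) at chr2L:17481030-17481230 (fws/Lamtor3) and chr3L:9426759-9427009 (Atat/Shc), and Motif 1 (GGTCACAC) at chr2L:419653-419951 (CG13690/RpLP1).
fws/Lamtor3: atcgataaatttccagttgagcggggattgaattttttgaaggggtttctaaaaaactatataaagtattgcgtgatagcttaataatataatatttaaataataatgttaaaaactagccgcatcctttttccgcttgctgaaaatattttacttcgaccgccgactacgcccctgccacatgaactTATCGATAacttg
Atat/Shc: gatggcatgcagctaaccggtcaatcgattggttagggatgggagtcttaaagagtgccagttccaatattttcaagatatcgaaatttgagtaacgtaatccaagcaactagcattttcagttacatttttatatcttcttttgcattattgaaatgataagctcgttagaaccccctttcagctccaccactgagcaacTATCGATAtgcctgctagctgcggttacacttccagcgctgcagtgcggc
CG13690/RpLP1: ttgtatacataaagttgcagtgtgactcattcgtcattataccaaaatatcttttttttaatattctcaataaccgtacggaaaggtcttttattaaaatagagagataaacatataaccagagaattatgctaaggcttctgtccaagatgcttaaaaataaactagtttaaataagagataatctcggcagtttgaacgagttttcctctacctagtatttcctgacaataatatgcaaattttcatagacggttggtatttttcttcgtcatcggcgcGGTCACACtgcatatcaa
In the first 2 of these the motif lay toward the plus-strand TSS and away from the summit, which fell on base 104 of fws/Lamtor3 and base 126 of Atat/Shc. In CG13690/RpLP1 the summit fell on base 289, the last base of the motif.

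The 5 members of highest signal in all 3 replicate lists were at pairs of genes with varied known functions. Signal is the peak caller's own value, so it was divided in each replicate by the median signal of that replicate's 30000 candidate peaks and is given below as relative signal. The peak of Atg4b, an autophagy protease gene, and Hibch, a gene of valine breakdown, ranked 6 of 7248, with a relative signal of 90.8, 46.5 and 29.6 in replicates 1, 2 and 3. Wdr24, which encodes a subunit of the GATOR2 complex upstream of TOR, and IntS11, the endonuclease gene of the Integrator complex, shared the peak of rank 12, with a relative signal of 73.2, 45.9 and 30.1. Replicate 1 was the highest and replicate 3 the lowest at both pairs, and the replicates differed by more than the distance between the 2 pairs.

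The next peaks were more even across replicates. Chro, the gene of the chromodomain protein Chromator, and Ssl1, a gene of the transcription and repair complex TFIIH, shared a peak with a relative signal of 51.0, 42.7 and 50.2. Art3, an arginine methyltransferase gene, and mRpS10, a mitochondrial ribosomal protein gene, had 54.8, 41.9 and 43.6. At mRpS23 and CenG1A, an Arf GTPase-activating protein gene, the order of the replicates was turned round, with 34.2, 49.2 and 57.6. The ranges of these 3 pairs overlapped, so their order by signal was within the spread between replicates.

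Among the other members with the 20 highest signals in all 3 replicate lists, CG7601 and CIA30, a gene of mitochondrial complex I assembly, had a relative signal of 31.2, 31.1 and 33.1. Pex11ab, a peroxisome division gene, and CG8320 had 26.5, 28.7 and 27.6, so both peaks were nearly level across replicates. The widest spread in proportion to its level was at prd1 and HisCl1, a histamine-gated chloride channel gene, with 58.0, 25.6 and 12.9. The translational repressor gene eIF4EHP with CG18428 had 51.9, 28.1 and 24.4. The Golgi tethering gene fws with the Ragulator gene Lamtor3 had 38.7, 24.2 and 25.1. CHMP2B, an ESCRT-III membrane scission gene, shared its peak with Tcs5 and had 35.5, 25.6 and 25.3. The remaining pairs of this set were Fbw5/CG9147, Pdrg1/Pal1, CG11309/CG7632, CG13390/CG17294, CG3437/CG3552, CG5611/Mtl, tank/CG12194, CG5757/CG5098 and CG8372/CG8360.

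**Figure D1:**
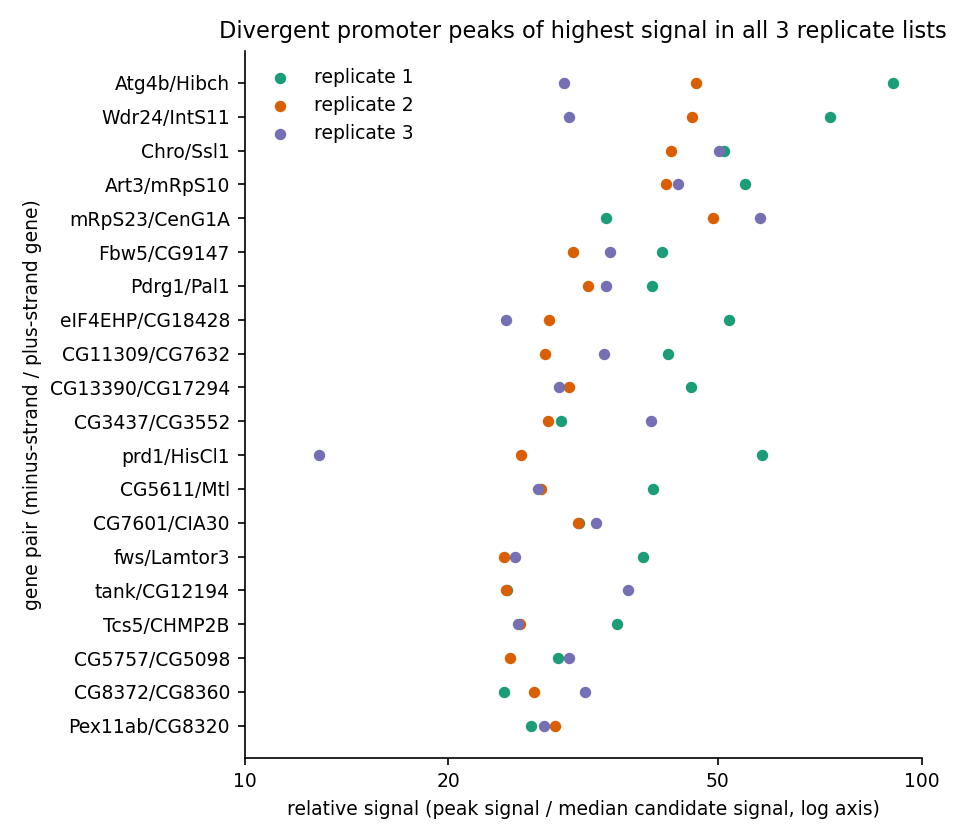
Relative signal (peak signal over that replicate's median candidate signal, log axis) of the 20 divergent promoter peaks of highest signal that were in all 3 replicate lists, 1 row per gene pair and 1 point per replicate. Replicate 1 gave the highest point for 13 of the 20 pairs and replicate 3 for 6; on this log axis prd1/HisCl1 had the widest spread, with 58.0 in replicate 1 and 12.9 in replicate 3.

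Of the 431 members, 361 had a candidate summit within 200 bp in every replicate. Their mean relative signal ran from 1.65 to 55.6, and the coefficient of variation over the 3 replicates had a median of 37.3% (25th to 75th percentile 21.1 to 53.0%). Replicate 1 was the highest at 304 of them, replicate 3 at 45 and replicate 2 at 12. For relative signal across the 361 peaks, replicates 1 and 2 had a Spearman's rho of 0.87, replicates 1 and 3 of 0.80, and replicates 2 and 3 of 0.89. They are descriptions across peaks, which share their sequencing libraries and control file.

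Divergent promoter peaks ranked above other promoter peaks in the pooled list, and the size of the difference varied with the replicate. The 1532 other promoter peaks had a summit within 500 bp of a protein-coding TSS but no qualifying pair. The median relative signal of the members was 7.72 in replicate 1, against 4.72 for other promoter peaks. In replicate 2 it was 4.14 for members and 3.44 for other promoter peaks, and in replicate 3 it was 4.20 and 4.02. Members were higher in 3 of 3 replicates, by 1.64-fold, 1.20-fold and 1.04-fold, a mean log2 ratio of 0.35 ± 0.33 (SD, n = 3). The exact sign-flip permutation test gave a two-sided p of 0.25, the smallest that 3 replicates allow, and the mean was about the size of the SD.

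Set against the 1183 other promoter peaks upstream of their nearest TSS, the ratio was smaller, with a mean log2 ratio of 0.27 ± 0.30 (SD, n = 3; exact sign-flip p = 0.5) and no excess in replicate 3 (log2 ratio −0.0046). Against the 349 peaks downstream of their nearest TSS it was 0.59 ± 0.38 (SD, n = 3; exact sign-flip p = 0.25). By rank, 25 of the 100 peaks of highest signal and 86 of the highest 725 (11.9%) were members, while 30 of the lowest 725 (4.14%) were.

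Recovery of the members across replicates was near that of other peaks. Each replicate's own list was taken as its 7248 candidates of highest signal, and a peak was recovered if a summit of that list lay within 200 bp. All 3 lists held 282 members (65.4%, 95% Wilson interval 60.8 to 69.8%), 66.0% of other promoter peaks and 66.7% of all reproducible peaks. A further 95 members were in 2 lists, 47 in 1 and 7 in none. Of the other promoter peaks, all 3 lists held 69.2% of those upstream and 55.0% of those downstream of their nearest TSS. Single replicate lists held 83.8%, 85.8% and 81.7% of the members, against 84.0%, 83.3% and 85.9% of other promoter peaks. The mean difference was −0.64 ± 3.41 percentage points (SD, n = 3; exact sign-flip p = 0.75), with its sign differing between replicates.

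The full candidate lists differed in replicate 1. There, 60 members (13.9%) had no candidate summit within 200 bp, against 7.11% of other promoter peaks, 2.78% of peaks over 500 bp from a TSS and 4.36% of all reproducible peaks. Among other promoter peaks it was 6.17% of those upstream and 10.3% of those downstream of their nearest TSS. In replicates 2 and 3 only 6 members (1.39%) each lacked a candidate. The difference from other promoter peaks in the share with a candidate was −6.81 percentage points in replicate 1, 0.174 in replicate 2 and 0.827 in replicate 3 (exact sign-flip p = 1). The members absent from replicate 1 also had lower signals in the other replicates, with median relative signals of 3.28 and 3.69 in replicates 2 and 3, against 4.31 and 4.38 for those present. Their mean GC content of 33.5% and median TSS distance of 295.5 bp were close to the 33.2% and 302 bp of the members present. What set replicate 1 apart was not tested.

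Among the members in the highest 10% of reproducible peaks, 2 lacked a candidate in replicate 1. The peak shared by Cp190 and CG4338 had a relative signal of 17.2 and 15.9 in replicates 2 and 3, at ranks 201 and 362. The peak of cag and CG12942 had 11.1 and 11.4. Below that limit, the peak of U2af50, a splicing factor gene, and PIG-Q at rank 817 had 10.1 and 9.75 in replicates 2 and 3 and no candidate in replicate 1 either.

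Most summits lay between the 2 start sites. The summit was between the TSSs in 338 of 431 members (78.4%, 95% Wilson interval 74.3 to 82.0%), and in 76.1 ± 0.66% of divergent promoter peaks of the 3 replicate lists (SD, n = 3). Positions between the TSSs made up 49.3% of those the rule allows, averaged over members, so part of this share follows from the rule. The median distance from the midpoint was 65 bp, and 177 (41.1%) lay within 50 bp of it. This median was 33 bp with 201 to 300 bp between the TSSs and 105.5 bp with at most 100 bp. No value that the rule alone would give was calculated for nearness to the midpoint. Of the 93 summits outside, 51 lay in the minus-strand gene and 42 in the plus-strand gene. The summits between the TSSs were nearer to the plus-strand TSS in 186 cases and to the minus-strand TSS in 151.

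The share between the TSSs exceeded the share of allowed positions at every TSS distance up to 500 bp, while above that the rule allows no other position. With 201 to 300 bp between the TSSs, 111 of 127 summits (87.4%) lay in between, where 34.3% of the allowed positions lie, at a median of 129 bp from the minus-strand TSS and 121 bp from the plus-strand TSS. With at most 100 bp, 6 of 43 (14.0%) did, against 6.13% of allowed positions, and the others did not lie between the TSSs. The shares were 44.2% against 17.5% of allowed positions at 101 to 200 bp, 90.1% against 53.6% at 301 to 400 bp and 90.5% against 80.7% at 401 to 500 bp. The rise of the share with TSS distance therefore follows in part from the rule. The nearer TSS was at a median of 105 bp (25th to 75th percentile 64 to 146 bp), and the fullest 25 bp bin was 100 to 124 bp with 87 members. The corresponding median was 208 bp for other promoter peaks upstream of their TSS and 160 bp for those downstream. A member is near a pair of TSSs by rule, which shortens the distance to the nearer one.

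**Figure D2:**
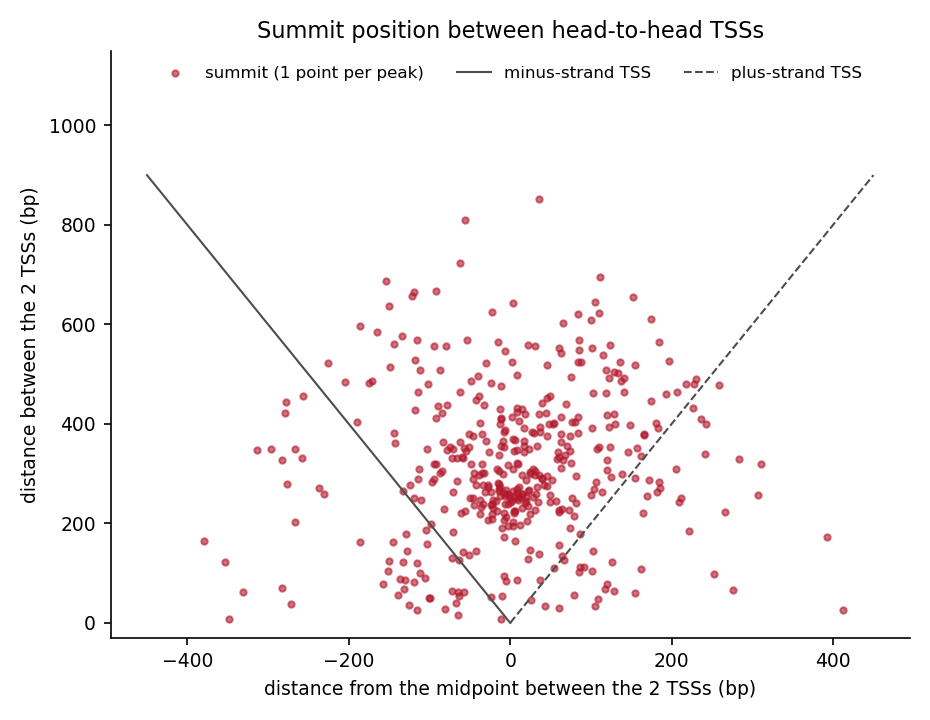
Summit position of the 431 divergent promoter peaks (1 point each) as the distance in bp from the midpoint between the 2 TSSs (horizontal) and the distance between the TSSs in bp (vertical); lines mark the minus-strand (solid) and plus-strand (dashed) TSS. Points gather at the midpoint between 201 and 300 bp of TSS distance, and spread past the lines at shorter distances, where the rule allows more positions outside them.

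The extremes of TSS distance among members in all 3 replicate lists were 8 and 853 bp. The shortest belonged to the tRNA synthetase gene SerRS with CG17260 (8 bp), with a relative signal of 14.6, 9.28 and 6.44, and to E(z), the Polycomb histone methyltransferase gene, with Cnep1r2 (16 bp), with 15.5, 9.03 and 7.72. The longest belonged to CG42260 and blw, the ATP synthase alpha subunit gene (810 bp), with 9.25, 8.52 and 4.31, and to the cullin gene Cul5 with the SWI/SNF subunit gene Bicra (853 bp), with 9.11, 4.54 and 3.20. The ranges of the short and long pairs overlapped. Across members, Spearman's rho between TSS distance and relative signal was −0.11, −0.16 and −0.18 in replicates 1, 2 and 3 (371, 425 and 425 peaks), given as a description.

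Most head-to-head pairs had no such peak. The annotation held 2667 pairs of protein-coding genes with TSSs at most 1000 bp apart in this arrangement, and 456 of them (17.1%, 95% Wilson interval 15.7 to 18.6%) had a divergent promoter peak. The replicate lists gave 19.3 ± 2.55% (SD, n = 3), with 302 pairs occupied in all 3 lists and 741 in at least 1. The median TSS distance was 302 bp for members and 301 bp for all pairs. The 25th to 75th percentile was 226 to 410.5 bp for members and 163 to 502 bp for all pairs. These distances are not the same measure, since that of a member is between the TSSs taken for its summit. The pair Elp6/Dic1, for example, had members at TSS distances of 350 and 622 bp. The rule also leaves fewer allowed positions the longer the TSS distance. The lower 75th percentile of members therefore follows in part from the rule. Single peaks counted for more than 1 pair in 20 cases, 1 of them for 21 annotated pairs at the mod(mdg4) locus, where trans-spliced units are annotated on both strands.

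In the reproducible list, occupancy was highest at TSS distances of 201 to 400 bp. It was 16.6% of 429 pairs at 1 to 100 bp, 15.4% of 357 at 101 to 200 bp, 24.0% of 542 at 201 to 300 bp and 26.8% of 400 at 301 to 400 bp. It was 19.9% of 267 at 401 to 500 bp and 13.9% of 208 at 501 to 600 bp. In the replicate lists it was 27.6 ± 6.19% at 201 to 300 bp and 16.8 ± 2.39% at 101 to 200 bp (SD, n = 3), and the shorter distance was lower in every replicate. The next class, 401 to 500 bp, had 23.2%, 20.2% and 19.1% in replicates 1, 2 and 3, above the 21.6% at 201 to 300 bp in replicate 1 and below it in the other 2 (33.9% and 27.3%). Above 600 bp it was 5.84% or less. The rule itself leaves fewer allowed positions the longer the TSS distance, so the classes from 401 to 600 bp are affected as well. By any summit within 500 bp of a TSS of either gene, a count the rule does not limit in this way, the share was 21.4% at 1 to 100 bp, 20.2% at 101 to 200 bp, 29.9% at 201 to 300 bp and 34.8% at 301 to 400 bp, and 24.7 to 34.0% above. At 1 to 100 bp there were 71 occupied pairs and 43 member peaks, against 130 and 127 at 201 to 300 bp. Single peaks that counted for several pairs, as at mod(mdg4), can raise the share of a class. The shares without such peaks were not calculated.

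**Figure D3:**
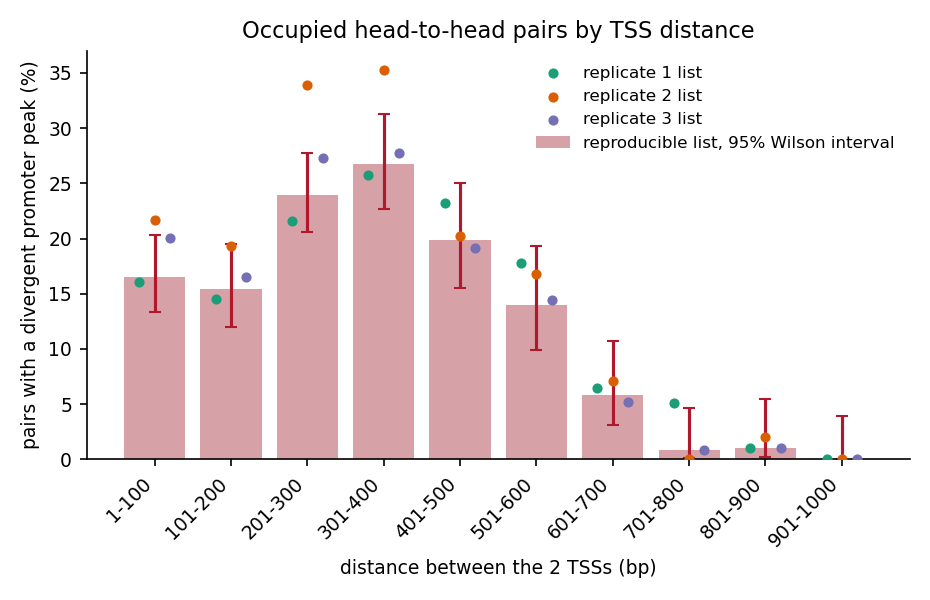
Share of annotated head-to-head pairs with a divergent promoter peak (percent) by distance between the TSSs in 100 bp classes; bars give the reproducible list with 95% Wilson intervals and points the 3 replicate lists. The bars are highest at 201 to 300 bp (24.0%) and 301 to 400 bp (26.8%), and the rule itself leaves fewer allowed positions the longer the TSS distance.

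By chromosome, 19.3% of pairs on 3R and 3L, 18.7% on 2L, 15.6% on X and 12.2% on 2R were occupied, and none of 11 on chromosome 4 (upper Wilson limit 25.9%), where the replicate lists gave 18.2%, 9.09% and 0%. The replicate lists gave 15.2 ± 4.09% on 2R and 22.3 ± 3.21% on 3R (SD, n = 3), and 2R was the lower of the 2 in every replicate list (11.4% against 19.9%, 19.5% against 25.9% and 14.5% against 20.9%). The 132 occupied pairs on 3R came from 116 member peaks, and the 66 on 2R from 60. On 3R the mod(mdg4) locus adds 21 occupied pairs through 1 peak, which raises the share there. The shares without this locus were not calculated. CG10669, the gene of the tagged protein, is itself in a head-to-head pair with CG11902, with TSSs 14 bp apart, and this pair had no divergent promoter peak. The nearest reproducible summit was 52459 bp from its TSS.

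The DNA under the members was AT-rich, more so than under other promoter peaks. In the 200 bp around the summit the mean GC content was 33.2% for members, 37.3% for other promoter peaks (36.0% upstream and 41.4% downstream of the TSS) and 34.9% for peaks over 500 bp from a TSS. In replicates 1, 2 and 3 it was 32.1%, 33.9% and 34.9% for members, against 35.3%, 38.4% and 39.3% for other promoter peaks. Members were lower in 3 of 3 replicates, by a mean difference of −4.04 ± 0.70 percentage points (SD, n = 3; exact sign-flip p = 0.25, the smallest possible). The difference was larger than the spread between replicates.

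Away from the summit the order was reversed. The 200 bp windows centred 500 bp to the left and to the right of the summit had 49.1% and 49.6% GC at members, against 42.1% and 42.3% at other promoter peaks. By rule a member has 2 TSSs within 500 bp, with a gene running away to each side. Other promoter peaks need only 1 TSS within that distance. The part of the rule in the GC content of these windows was not tested. In 20 bp bins the lowest value of the members was 30.7%, 20 bp from the summit. The bin at the summit had 31.3%, against 35.6% for other promoter peaks and 32.0% for peaks over 500 bp from a TSS. Pairs without a divergent promoter peak were AT-rich as well, since the 200 bp around the midpoint had 32.2% GC in occupied pairs and 34.3% in unoccupied ones. The 6-mer TTAAAA, picked for its excess over the flanking windows, was in 61.9% of member windows, 14.4% of their flanking windows, 45.6% of other promoter peaks and 52.1% of unoccupied pairs. Across members, GC content and relative signal had a Spearman's rho of −0.31 in replicate 1, −0.10 in replicate 2 and −0.012 in replicate 3.

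**Figure D4:**
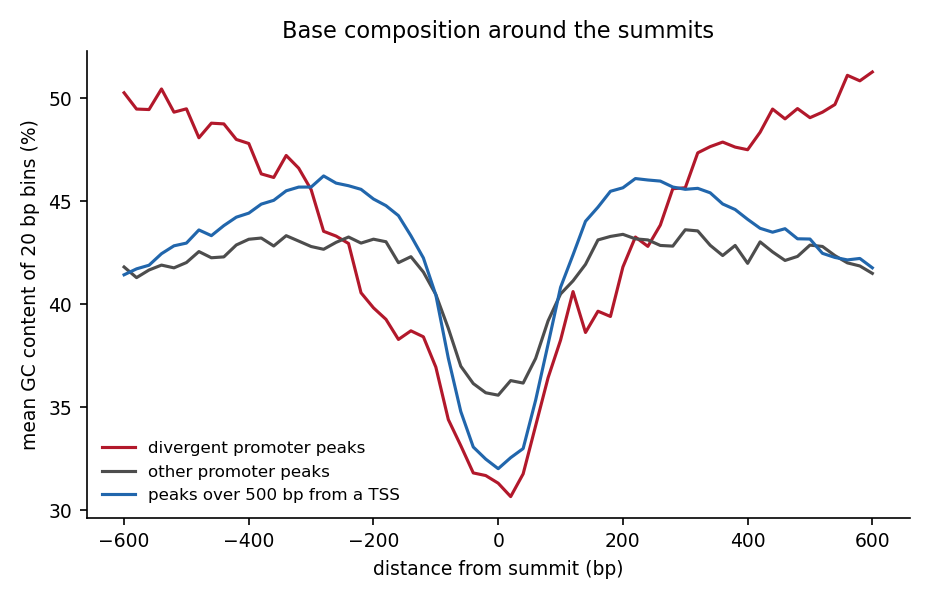
Mean GC content (percent) in 20 bp bins by distance from the summit in bp, for divergent promoter peaks, other promoter peaks and peaks over 500 bp from a TSS. The members had the lowest GC content near the summit and the highest at 500 bp to either side, where by rule a gene runs to each side. The summit bin had 31.3% for members, 35.6% for other promoter peaks and 32.0% for peaks over 500 bp from a TSS.

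The DRE, CGATA and Motif 1, all known from housekeeping promoters, were more frequent in members than in other promoter peaks, and no more frequent than in unoccupied pairs. Consensus letters were searched on both strands of the 200 bp summit window, or of the 200 bp at the midpoint of the 2211 unoccupied pairs. The DRE was in 29 member windows (6.73%, 95% Wilson interval 4.73 to 9.50%), 1.70% of other promoter peaks, 0.246% of peaks over 500 bp from a TSS, 8.96% of unoccupied pairs and 6.44% of 200 bp windows at all 19252 annotated TSS positions. The replicate lists gave 8.10 ± 0.95% for members and 1.84 ± 0.32% for other promoter peaks (SD, n = 3). The core CGATA, which the DRE contains, was in 35.7% of members, 25.2% of other promoter peaks, 42.1% of unoccupied pairs and 37.0% of TSS windows. Motif 1 was in 4.41% of members, 1.50% of other promoter peaks, 5.70% of unoccupied pairs and 5.68% of TSS windows.

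GAGA elements were less frequent in members than in other promoter peaks, and also less frequent than in unoccupied pairs. They were in 3.12% of peaks over 500 bp from a TSS. The letters GAGAGAG were in 3 members (0.696%, 95% Wilson interval 0.237 to 2.03%), 9.79% of other promoter peaks, 2.49% of unoccupied pairs and 4.65% of TSS windows. The replicate lists gave 1.17 ± 0.29% for members and 8.90 ± 1.12% for other promoter peaks (SD, n = 3), with members lower in every replicate. Peaks upstream and downstream of a single TSS had similar shares, 9.55% and 10.6%.

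Some further motifs were more frequent in members than in both other promoter peaks and unoccupied pairs. Motif 7 (CATCNCT), a further known motif of housekeeping promoters, was in 15.3% of members, 7.90% of other promoter peaks, 10.6% of unoccupied pairs and 9.97% of TSS windows. The letters of the TATA box, TATAAA, were in 45.9%, 31.5%, 39.4% and 26.8% of these groups in the same order, and the homeodomain core TAATTA in 24.1%, 14.2%, 21.3% and 9.31% of them. The poly-A run AAAAAAA, also of A and T alone, was in 25.3% of members, 26.6% of other promoter peaks, 23.6% of unoccupied pairs and 17.7% of TSS windows. The part of base composition in these shares was not tested. The initiator letters TCAGT were in fewer members (25.8%) than other promoter peaks (34.0%), unoccupied pairs (31.7%) and TSS windows (43.3%). None of these matches shows that a factor was bound.

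**Figure D5:**
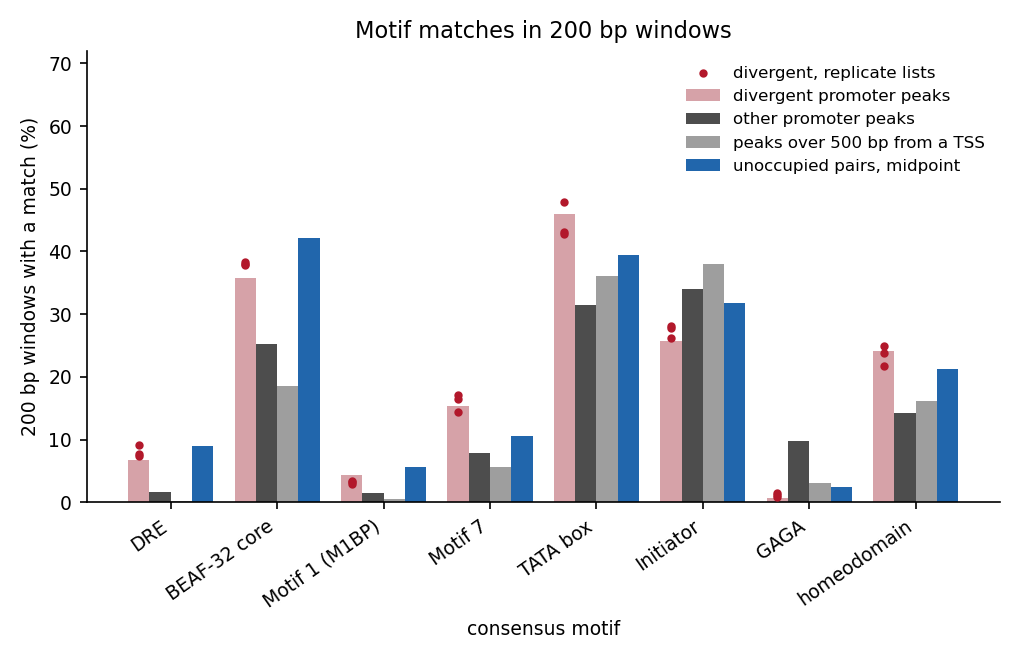
Share of 200 bp windows (percent) with a match to 8 of the 23 consensus motifs in divergent promoter peaks (with points for the 3 replicate lists), other promoter peaks, peaks over 500 bp from a TSS and unoccupied pairs at their midpoint. The DRE was in 6.73% of divergent peaks and 8.96% of unoccupied pairs, and GAGA is high in other promoter peaks (9.79%) and low in divergent ones (0.696%).

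The DRE, CGATA and Motif 1 were least frequent in the strongest members. In 4 groups of 107 members each, in order of signal from the highest and with the 3 lowest members left out, the DRE was in 1.87%, 7.48%, 9.35% and 7.48% of windows, CGATA in 22.4%, 35.5%, 39.3% and 45.8% and Motif 1 in 0.935%, 3.74%, 5.61% and 7.48%. The members with a DRE had a median relative signal of 5.43, 3.38 and 3.48 in replicates 1, 2 and 3, against 7.87, 4.16 and 4.43 for those without. They were lower in 3 of 3 replicates. The DRE lay a median of 59.5 bp from the summit, and Atat/Shc at rank 304 and fws/Lamtor3 at rank 59, printed above, were the strongest of them. These groups are a description, and GC content was lower where signal was higher in replicate 1 (rho given above).

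Ribosomal protein genes were often at members, and how often depended on the window around the TSS. Of 5052 genes in head-to-head pairs, 856 (16.9%) had a divergent promoter peak, and the counts below are to be read against this share. Of 53 cytoplasmic ribosomal protein genes in pairs, 25 (47.2%, 95% Wilson interval 34.4 to 60.3%) had one, and the replicate lists gave 45.3 ± 6.54% (SD, n = 3). This was the highest share among the lists with more than 4 genes in pairs. With summits within 250 bp of both TSSs it was 12 of 53 (22.6%), against 10.6% of all genes in pairs, and the mitochondrial import, insulator, Mediator and peroxisome lists described next had higher shares (5 of 19, 4 of 16, 5 of 21 and 5 of 22). These genes' 25 peaks had a median rank of 2296, the same as that of all members. RpL32 with CG7943 had a relative signal of 11.2, 8.31 and 9.21, and RpS27 with the nuclear pore gene Nup37 had 12.8, 6.95 and 9.17. RpL34b with CG8132 had 6.79 and 5.57 in replicates 2 and 3 and no candidate in replicate 1, as for 6 of the 25 peaks. RpL34a and RpL34b, and RpS14a and its tandem copy, are close paralogs among which reads may have been shared, so these members are uncertain.

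Mitochondrial ribosomal protein genes were at members in 16 of 59 cases (27.1%, 95% Wilson interval 17.4 to 39.6%; 27.1 ± 1.69% in the replicate lists, SD, n = 3). Besides mRpS10 and mRpS23 above, mRpL23 with CG9004 had a relative signal of 28.7, 21.0 and 23.3. Genes of mitochondrial import and quality control were at members in 6 of 19 cases (31.6%). The 6 genes include Hibch, named above, which the list holds although it is a gene of valine breakdown. Others were the mitochondrial protease gene Lon with PIG-F (37.9, 18.3 and 18.1) and the mitochondrial chaperone gene Hsc70-5 with CG8531 (20.6, 7.68 and 8.81). Oxidative phosphorylation genes were at the share of all pairs, with 9 of 48 (18.8%), led by the complex I gene ND-ASHI with the fumarase gene Fum1 (16.2, 19.0 and 23.8).

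Among genes of transcription and chromatin, the counts were 6 of 21 for Mediator (28.6%), 6 of 38 for RNA polymerases and general transcription factors (15.8%), 10 of 56 for chromatin regulators (17.9%) and 5 of 16 for insulator and architectural proteins (31.3%). The Mediator gene MED30 with Rev1 had a relative signal of 11.8, 7.64 and 9.15. The SWI/SNF ATPase gene brm with Arl1, a Golgi GTPase gene, had 25.4, 15.2 and 13.0, and the acetyltransferase gene Gcn5 with ver had 20.9, 10.9 and 12.1. The 5 insulator genes were Chro, Cp190, Dref, M1BP and pzg, of which Dref and the ribosomal protein gene RpL13 share a peak with 9.04, 5.88 and 6.23. The genes of Dref and M1BP, whose motifs were searched above, thus have divergent promoter peaks themselves. The Wilson interval of the insulator list, 14.2 to 55.6%, holds the 16.9% of all genes in pairs.

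The other lists with a share above 20% were vesicle traffic and autophagy with 26 of 121 (21.5%), nuclear pore and transport with 7 of 29 (24.1%), peroxisome and lipid enzymes with 7 of 22 (31.8%) and the ecdysone response with 2 of 4 genes in pairs, the nuclear receptor genes Hr96 and usp. Of these, Vha100-2, a proton pump subunit gene, with Vti1b had 21.7, 20.6 and 21.8, while usp, the partner of the ecdysone receptor, with CG4313 had 3.63, 4.16 and 2.43. The 95% Wilson intervals of these lists hold the 16.9% of all genes in pairs. They were 15.1 to 29.6% for vesicle traffic, 12.2 to 42.1% for nuclear pore and 16.4 to 52.7% for peroxisome and lipid enzymes. Near 16.9% were aminoacyl-tRNA synthetases (4 of 23; 26.1 ± 4.35% in the replicate lists, SD, n = 3), translation factors (5 of 29; 11.5 ± 1.99% in the replicate lists, SD, n = 3), GATOR and TOR (2 of 12) and cell cycle and mitosis (11 of 63). Below it were splicing and RNA processing (6 of 47), heat shock and chaperones (3 of 24), DNA replication and repair (5 of 42) and the proteasome and ubiquitin list (4 of 56, 7.14%, 95% Wilson interval 2.81 to 17.0%). The proteasome list had 8.93%, 19.6% and 8.93% in the replicate lists. These lists occupied more pairs (19.3 ± 2.55%, SD, n = 3) than the reproducible list (17.1%). The share of all genes in pairs is not given for the replicate lists. Replicate-list shares of any gene list are therefore not to be read against the 16.9%.

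Most of these counts fell when a replicate was left out, as fewer peaks then remained by construction. Without replicates 1, 2 and 3 in turn, the share of all genes in pairs with a divergent promoter peak was 12.9%, 11.9% and 12.3%. The vesicle list fell to 14 of 121 genes without replicate 2 (11.6%) and 16 without replicate 3, and the insulator list to 2 of 16 when either replicate was left out. Translation factors fell to 2 of 29 whichever replicate was left out, the proteasome list to 2 without replicate 1 or 2, and the cell cycle list to 7 without replicate 1 or 2. Without replicate 2 or 3, splicing and RNA processing and DNA replication and repair were at 3 genes each and the ecdysone response at 1. Mitochondrial ribosomal protein genes were at 11, 13 and 13 of 59 without replicates 1, 2 and 3. Without replicate 2, the shares of the vesicle (11.6%), insulator (12.5%) and cell cycle (11.1%) lists were near the 11.9% of all genes in pairs.

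At 18 members both genes were in a list. They included pairs from the same list, such as RPA1 and Mcm2, both of DNA replication (relative signal 8.35, 4.66 and 4.24). Further such pairs were SAK and Cdk12, both kinase genes that the cell cycle list holds (11.5, 4.61 and 3.59), and Atg7 and Sec6, of autophagy and exocytosis, found in replicates 2 and 3 (6.06 and 5.59). A shared list need not mean a like function. Others joined genes of different lists, such as Cdk1 with mRpS7 (9.18, 2.04 and 3.19) and SC35, a splicing factor gene, with the termination factor gene eRF3 (5.21, 1.34 and 1.48). Rrp1 with gammaTub23C had 15.7, 7.46 and 6.47. The lists were built from gene symbols, and Rrp1, a DNA repair gene of the fly, entered the RNA processing list by its symbol. In all, 163 of the 856 genes were in any list, and at 36 members both genes had only a CG number as symbol.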

How the data were processed

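The authors deposited, per the file headers, 1 candidate peak list per replicate (its alignments against 1 control file common to the 3 replicates), a list from the pooled alignments, and a reproducible list from the irreproducible discovery rate (IDR) step, in dm6 coordinates. Not given in the sources used here are aligner, caller, versions and IDR threshold. Each deposited signal is a peak caller value whose scale differs between lists, so it was used as ranks or relative to the list's median. The deposited −log10 q-value was at its highest for all 7248 reproducible peaks and was not used. Those peaks were the 7248 pooled candidates of highest signal, and the replicate lists used here were each replicate's 7248 candidates of highest signal.

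Genes and TSSs were those of Ensembl release 115 (13945 protein-coding genes) and sequences those of RefSeq, Release 6, and no peak ended beyond its chromosome. Members and replicates were compared by exact sign-flip permutation over 3 replicates, two-sided, whose smallest p is 0.25. Peaks, genes and pairs are not replicates, and Wilson intervals cover counting error only. The members, 20 gene lists, 23 motifs and tests were chosen with earlier results of these data known. The text names the pairs of the 20 members of highest signal in all 3 lists, pairs with both genes in a list, members in the highest 10% lacking a candidate in a replicate, the extremes of TSS distance, up to 3 members per list and CG10669. Alternatives used TSS windows of 250 bp, TSSs at most 500 bp apart, canonical TSSs, the 3624 peaks of highest signal, match distances of 100 and 400 bp, other sequence windows and leaving out each replicate. Calculations used Python 3.11.15, NumPy 2.4.6, SciPy 1.17.1 and matplotlib 3.10.9, and the member rule, ratio and motif search were tested on simulated data.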

Additional observations from a re-analysis of the deposited data

How the results depend on the processing

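The lower GC content of members kept its direction under all 8 alternatives (leaving out each replicate gave −4.45 to −3.84 percentage points), and the higher signal under all 10, one of them added after seeing the data: 0.38 for peaks found in all 3 candidate lists. The log2 signal ratio was 0.12 among the 3624 peaks of highest signal (exact sign-flip p = 0.75), 0.61 with a TSS window of 250 bp, and 0.16 to 0.49 when each replicate was left out, lowest without replicate 1. The recovery difference changed sign with a match distance of 100 bp (0.325 percentage points) and, among −2.24 to 1.15 when a replicate was left out, without replicate 3. The member share was 4.98% with canonical TSSs, 3.53% when summits had to lie within 250 bp of both and 8.06% among the 3624 peaks of highest signal. Pair occupancy was 20.7% with TSSs at most 500 bp apart, 12.04% among the 3624 peaks of highest signal, 11.4% for peaks in all 3 lists and 12.1 to 13.1% without each replicate, where fewer peaks remained by construction. Summits between the TSSs were 80.9% with a window of 250 bp, 73.8% with TSSs at most 500 bp apart, 77.4% among the 3624 peaks of highest signal, 76.2% in all 3 lists and 76.3 to 77.2% without each replicate. Ribosomal protein genes at members were 12 with a window of 250 bp and 18 to 23 under the other 6 alternatives, against 25. Motif shares grow with the window: the DRE was in 1.86% of members at 100 bp and 16.2% at 400 bp. Peak classes were compared within each replicate, so their 3 differences are paired by replicate, and there is 1 sample group. With 3 replicates no sign-flip p can fall below 0.25, and without read numbers no precision from depth can be given.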
